A study of Homo sapiens with 2 samples.

Results

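The genes examined here encode 10 amino acid transporters of the plasma membrane, namely SLC7A11, SLC3A2, SLC7A5, SLC7A1, SLC1A5, SLC1A4, SLC1A1, SLC38A1, SLC38A2 and SLC6A9. They were chosen by name, with earlier results of these data known. Their probe sets were found through the gene symbols that the annotation of the array platform gives. These genes make up 10 of the 22458 with a symbol. Cells of HCT116, a long-established line from a human colon carcinoma, received 20 µM LXR623, which activates the liver X receptors (LXR), or 0.1% DMSO as the control, for 24 h. The labels do not state the DMSO content of the LXR623 culture, and the methods of the study give final DMSO levels under 0.1% for its reagents. A difference in vehicle cannot be told apart from the agonist. The labels name RPMI with 1.5% serum as the treatment medium, whereas the methods of the study name DMEM for these cells. The data hold 1 array per condition, so a difference between the arrays has no replicate check, and neither a test nor an error can be given.

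Amino acids are charged or polar at physiological pH and cross the plasma membrane only through transport proteins. Some carriers concentrate an amino acid in the cell by coupling it to sodium, and others are exchangers that trade an internal amino acid for an external one. In tumor cells these carriers supply glutamine, leucine, arginine, serine and cystine, the oxidized dimer of cysteine from which glutathione is made. Many of their genes are known targets of ATF4, a transcription factor at the center of the integrated stress response (ISR) that is translated when eIF2 kinases sense a shortage of amino acids or stress of the endoplasmic reticulum. The study asked, among other questions, whether LXR agonists elicit an ISR in tumor cells, and the transporters are one of the groups of genes in which such a response would be read.

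All values below are on the log2 scale, and a difference is the value of the LXR623 array minus that of the DMSO array. A gene counted as measured if at least 1 of its values was at or above 4.42, which is the median over the whole table. Each of the 10 transporters was above this level in both arrays, the lowest value among them being 5.81, so the filter on dim genes did not select them for a difference. The size used for counts was 1.5-fold, or 0.58 on the log2 scale. As a yardstick for single genes, the central 95% of the differences among the 500 measured probe sets nearest in mean value was determined for every transporter. Probe sets differ in how strongly they bind, and levels of different transporters were therefore not ranked against each other. The values are relative to the other probe sets of each array and come from whole cultures, in which fewer cells of a type and less RNA per cell cannot be told apart.

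Every one of the 10 transporters had a higher value in the LXR623 array than in the DMSO array. Of these, 3 were at least 1.5-fold higher, SLC7A11, SLC6A9 and SLC1A4, and 0 were at least 1.5-fold lower. Among all 12279 measured probe sets, 6.30% were higher and 5.78% lower by 1.5-fold or more, and 47.0% had a difference above 0. The median difference of the transporters was 0.43, against -0.02 for all measured probe sets. Besides the sign that they shared, the transporters differed widely in size of the difference, from 0.06 for SLC38A1 to 1.39 for SLC7A11. The differences of 2 transporters, SLC7A11 and SLC6A9, lay outside the central 95% of equally bright probe sets, and those of the other 8 lay inside it.

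**Figure D1:**
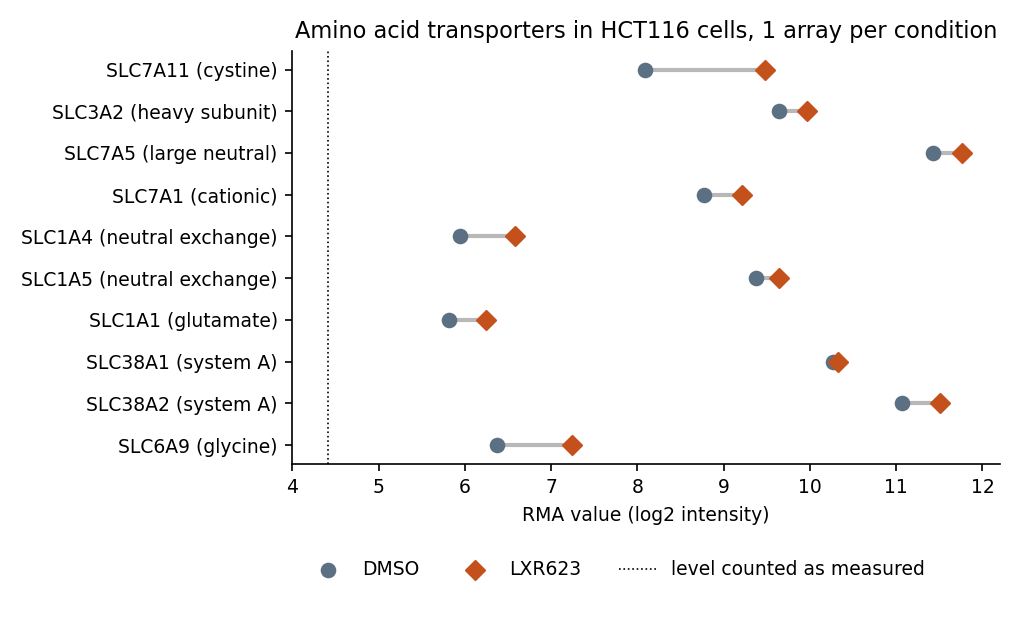
RMA values (log2 intensity, horizontal axis) of the 10 transporters in the DMSO array (circles) and the LXR623 array (diamonds), 1 array each, with the kind of substrate or system in parentheses and the level counted as measured as a dotted line. The diamond lies to the right of the circle in every line, far apart for SLC7A11 (8.09 and 9.48) and almost on it for SLC38A1 (10.27 and 10.33).

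The cystine transporter is a complex of a light and a heavy subunit. SLC7A11 encodes xCT, the light subunit, which takes up cystine in exchange for glutamate and thereby feeds the synthesis of glutathione. Its value was 8.09 with DMSO and 9.48 with LXR623. The difference of 1.39 corresponds to 2.63-fold and is the 43rd highest of the 12279 measured probe sets. It lies well above the range of equally bright probe sets, which ran from -0.66 to 0.57. An antisense transcript of the same locus, SLC7A11-AS1, had values of 2.89 and 3.06, both under the level counted as measured.

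SLC3A2 encodes 4F2hc (CD98), the heavy subunit that carries SLC7A11, SLC7A5 and other light subunits to the cell surface. It had a value of 9.65 with DMSO and 9.97 with LXR623. The difference of 0.32, or 1.25-fold, lies inside the range of its neighbors in brightness, from -0.57 to 0.74. The transcripts of both parts of the cystine transporter were thus higher in the LXR623 array, the light subunit by the larger amount.

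SLC7A5 encodes LAT1, which binds the same heavy subunit and exchanges glutamine for leucine and other large neutral amino acids. Its values were 11.43 with DMSO and 11.76 with LXR623, a difference of 0.33 or 1.26-fold. This difference is close to that of its partner SLC3A2. The array also carries probe sets for pseudogenes of SLC7A5, and SLC7A5P1 had 8.95 and 9.43, a difference of 0.47, while SLC7A5P2 had 5.43 and 5.29. These copies are near-identical in sequence to the parent gene, so that signal may be shared, and the part of SLC7A5P1 in the SLC7A5 values was not tested.

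SLC7A1 encodes CAT1, the main carrier for arginine and lysine in many cells. It had 8.78 with DMSO and 9.22 with LXR623. The difference of 0.44 lay below the upper bound of 0.56 for equally bright probe sets. SLC7A2, which encodes the related cationic carrier CAT2, differed in the opposite direction, with 5.59 and 4.65, a difference of -0.94.

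The SLC1 family supplied transporters on both sides of 1.5-fold. SLC1A4 encodes ASCT1, an exchanger of alanine, serine, cysteine and threonine, and had 5.95 with DMSO and 6.59 with LXR623. The difference of 0.64, or 1.56-fold, is just past the size used for counts and inside the range of equally bright probe sets, from -0.80 to 0.81. SLC1A5 encodes ASCT2, a related exchanger that brings in glutamine. Its values were 9.38 and 9.64, a difference of 0.26 or 1.20-fold. SLC1A1 encodes EAAT3, a sodium-coupled carrier of glutamate and aspartate that also takes up cysteine. It had 5.81 and 6.25, a difference of 0.43 or 1.35-fold, against a range from -0.86 to 0.80. Thus, among the 3, SLC1A4 was nearest to the edge of its range and the glutamine exchanger had the smallest difference.

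SLC38A1 and SLC38A2 encode SNAT1 and SNAT2, sodium-coupled carriers of glutamine, alanine and other small neutral amino acids (system A). SLC38A2 is known for its induction when cells lack amino acids. The values of SLC38A2 were 11.07 with DMSO and 11.51 with LXR623, a difference of 0.44 or 1.35-fold. SLC38A1 had 10.27 and 10.33, a difference of 0.06 or 1.04-fold, which is the smallest among the 10. Both genes are next to each other on chromosome 12, and their transcripts differed unequally between the arrays. No range can be given for the gap between them without replicate arrays.

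SLC6A9 encodes GlyT1, a carrier of glycine that depends on sodium and chloride and is best known from the brain. Glycine is also the last amino acid added in the synthesis of glutathione. The values of SLC6A9 were 6.38 with DMSO and 7.24 with LXR623. The difference of 0.86, or 1.81-fold, is the second highest among the transporters and the 280th of all measured probe sets. It is just past the range of equally bright probe sets, from -0.69 to 0.85. Of the transporters, only SLC7A11 passed 2-fold.

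**Figure D2:**
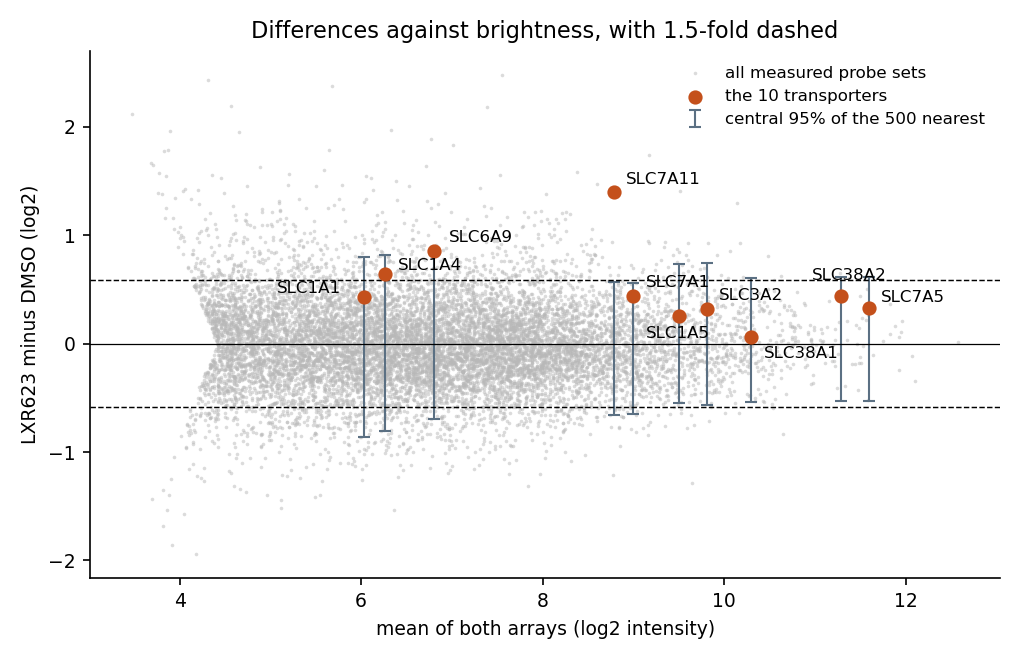
Difference between the LXR623 and the DMSO array (log2, vertical axis) against the mean of both arrays (log2 intensity, horizontal axis) for all measured probe sets (grey) and the 10 transporters (orange), with the central 95% of the 500 probe sets nearest in mean value as a bar at each transporter. SLC7A11 at 1.39 stands clear of its bar, SLC6A9 at 0.86 sits at the end of its bar, and the other 8 lie inside theirs.

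Promoter sequences were available from RefSeq (GRCh38.p14) for 9 of the 10 transporters, in 15 windows around annotated transcription start sites. Each window runs from 250 bases before the start to 50 bases after it. SLC7A11 has no entry in that table. Windows were searched on both strands for TGATGNAA, the core of the composite site that ATF4 binds together with C/EBP proteins, and for TGACNNNGC, the core of the antioxidant response element that NRF2 binds. TGACGTCA, the cAMP response element, and CACGTG, the E-box that MYC binds, were searched as well, and no found copy overlaps a copy of another motif in the windows of the transporters. TGATGNAA was found in 5 of the 15 windows, belonging to 5 of the 9 transporters. Of all 35116 windows 3.62% hold it, and of all 27305 genes with a window 4.46% do. A gene with several windows has more chances to hold it, and the transporters have 15 windows for 9 genes. Among the other plasma membrane amino acid transporters, 1 of 21 genes held it.

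For SLC7A1, SLC38A1 and SLC1A5, all under 1.5-fold, the stretch around this motif is shown so that the copies can be compared, 5′ to 3′, with the motif in capitals. Relative to the start site, and with no position 0, it lies at 8 to 15 in SLC7A1, across the start in SLC38A1, in 1 of 2 windows, and at -97 to -90 in SLC1A5, in 1 of 3 windows of that gene.
SLC7A1, chr13:29595663-29595692, minus strand: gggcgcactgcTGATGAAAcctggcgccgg
SLC38A1, chr12:46266502-46266531, minus strand: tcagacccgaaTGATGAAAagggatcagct
SLC1A5, chr19:46784893-46784922, minus strand: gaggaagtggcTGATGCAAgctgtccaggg

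For both transporters past 1.5-fold that have an entry, SLC1A4 and SLC6A9, and for the heavy subunit SLC3A2, a whole window is shown, again with found motifs in capitals. It is the only window of SLC6A9, and for SLC1A4 and SLC3A2 it is the 1 of 2 and the 1 of 3 windows that holds the composite motif. The SLC1A4 window holds the composite motif on the opposite strand, as TTGCATCA, across the start site. The SLC3A2 window holds it on the opposite strand, as TTACATCA, from base 38 to base 45 after the start, and TGACTCAGC, a match to the antioxidant response element, at -37 to -29. The SLC6A9 window holds none of the 4 motifs.
SLC1A4, chr2:64989149-64989448, plus strand: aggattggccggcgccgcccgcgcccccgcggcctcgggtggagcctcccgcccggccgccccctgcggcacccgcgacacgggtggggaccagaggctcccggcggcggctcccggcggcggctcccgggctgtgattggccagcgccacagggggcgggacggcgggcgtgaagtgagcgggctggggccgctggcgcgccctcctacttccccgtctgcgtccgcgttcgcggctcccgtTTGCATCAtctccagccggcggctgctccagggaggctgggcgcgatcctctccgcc
SLC3A2, chr11:62881449-62881748, plus strand: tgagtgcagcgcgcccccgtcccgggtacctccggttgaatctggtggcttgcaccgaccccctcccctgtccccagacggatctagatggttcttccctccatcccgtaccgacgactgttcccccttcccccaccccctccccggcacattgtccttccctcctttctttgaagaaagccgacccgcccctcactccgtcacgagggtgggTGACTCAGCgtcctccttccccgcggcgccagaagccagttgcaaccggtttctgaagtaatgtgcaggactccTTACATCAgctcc
SLC6A9, chr1:44031413-44031712, minus strand: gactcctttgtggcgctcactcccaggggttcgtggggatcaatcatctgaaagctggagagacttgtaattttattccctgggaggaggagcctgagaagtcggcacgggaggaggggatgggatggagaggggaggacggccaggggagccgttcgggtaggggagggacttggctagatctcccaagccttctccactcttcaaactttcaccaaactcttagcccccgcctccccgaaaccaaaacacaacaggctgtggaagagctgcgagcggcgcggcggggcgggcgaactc

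The transporters with and without the composite motif overlapped in their differences. The 5 transporters with it had differences from 0.06 to 0.64, with a median of 0.32, and the 4 without it from 0.33 to 0.86, with a median of 0.43. TGACNNNGC was found in windows of 4 transporters, SLC3A2, SLC7A1, SLC7A5 and SLC1A5, whose median difference was 0.33. It was found for 3 of the 21 other plasma membrane transporters and 16.1% of all genes with a window. CACGTG was found for 2 transporters, SLC7A5 and SLC1A5, for 5 of the 21 others and for 8.77% of all genes, while TGACGTCA was found for 0 transporters, 0 of the others and 2.25% of all genes. A match of letters is not a bound site, and elements outside these short windows were not searched.

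Other genes of amino acid transport at the plasma membrane lay on both sides of 0. A list of 28 other amino acid transporters of the plasma membrane held 11 measured genes, of which 2 were higher and 1 was lower by 1.5-fold or more. The shares over all measured probe sets were 6.30% and 5.78%. Their median difference was -0.04, and 5 of the 11 had a difference above 0. SLC43A1, which encodes LAT3, a carrier of large neutral amino acids that does not need the heavy subunit, was higher by 0.93, from 5.57 to 6.50. This difference lay above the range of equally bright probe sets, from -0.86 to 0.80. SLC7A8, which encodes LAT2, another light subunit partner of SLC3A2, was higher by 0.61, from 5.60 to 6.21, inside its range from -0.86 to 0.68. SLC7A2 was the lower one, as given above, and lay below its range, from -0.77 to 1.03. SLC16A10, a carrier of aromatic amino acids, differed by -0.58, from 5.97 to 5.39. SLC6A20, a carrier of proline, differed by 0.55, and SLC7A6, which also pairs with SLC3A2, by -0.17. The remaining 17 genes of this list, among them SLC7A7, SLC7A10 and SLC6A14, were under the level counted as measured.

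Of the 3 other measured SLC7 genes, SLC7A8 and SLC7A2 passed 1.5-fold, in opposite directions as given above, and SLC7A6 did not. Of 8 other measured SLC38 genes, 1 was at least 1.5-fold higher, SLC38A10 with 0.66, and 4 were above 0. Among the 4 other measured SLC6 genes, SLC6A8, the creatine transporter, differed by -0.55 and SLC6A6, the taurine transporter, by -0.33, while SLC6A20 and SLC6A17 differed by 0.55 and 0.31. SLC1A3, which encodes the glutamate transporter EAAT1, was the other measured SLC1 gene and differed by 0.24, from 8.11 to 8.34. Over all solute carrier genes other than the 10, 22 of 180 measured genes were higher and 13 lower by 1.5-fold or more. Both shares were above those over all measured probe sets, 6.30% and 5.78%, the share of higher genes by the larger margin. The median difference of these solute carrier genes was 0.02.

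**Figure D3:**
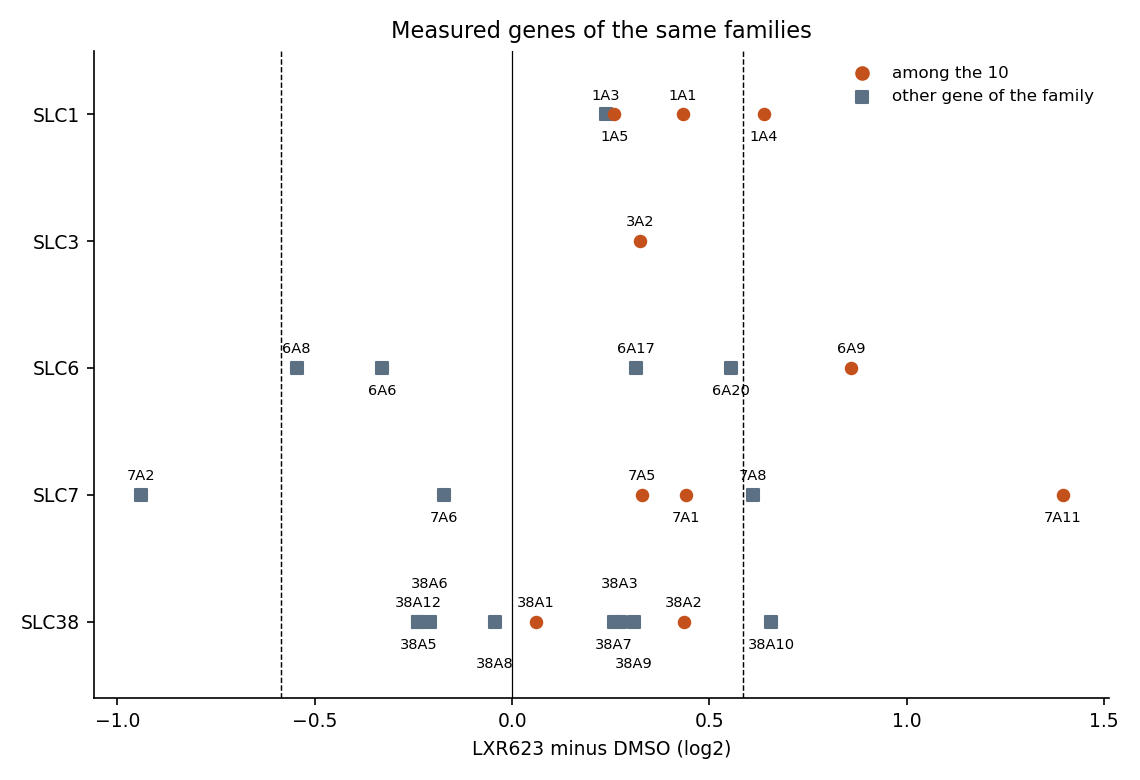
Difference between the LXR623 and the DMSO array (log2, horizontal axis) of each measured gene in the families SLC1, SLC3, SLC6, SLC7 and SLC38, with the 10 transporters as circles, other genes as squares, symbols without the letters SLC and 1.5-fold as dashed lines. SLC7A11 at 1.39 and SLC7A2 at -0.94 mark both ends.

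Of 8 measured transporters of the lysosome, which release amino acids from degraded protein, 0 passed 1.5-fold in either direction, and their median was -0.04. SLC38A9, the arginine sensor of mTORC1 on the lysosome, differed by 0.31, SLC36A4 by -0.51 and SLC66A1, an exporter of cationic amino acids, by -0.49. Of 8 measured mitochondrial carriers of amino acids, 3 (37.5%) were at least 1.5-fold lower, against 5.78% of all measured probe sets. At least 1.5-fold higher were 0, against 6.30%, and their median was -0.46. SLC25A13 and SLC25A12, the carriers that exchange aspartate for glutamate, had -0.74 and -0.68, and SLC25A29, a carrier of basic amino acids, had -0.76. These 3 lay inside the ranges of equally bright probe sets, with lower bounds of -0.80, -0.84 and -0.91 in the order given. All 8 mitochondrial carriers had a difference below 0, whereas the 10 chosen transporters were above it. Of the 11 other measured amino acid transporters of the plasma membrane, 5 were above 0, as were 47.0% of all measured probe sets. The contrast thus concerns the 10 and not the plasma membrane as a whole, and with 1 array per condition it has no test. Carriers of glucose, monocarboxylates and nucleosides had a median of -0.02 over 12 measured genes, of which 1 was at least 1.5-fold higher, SLC2A12 with 0.94, and 2 at least 1.5-fold lower, SLC16A7 with -0.70 and SLC2A4 with -0.65. SLC2A4 counted as measured only through its DMSO value of 4.75, its LXR623 value of 4.09 being under the level. The glucose transporter SLC2A1 differed by 0.17 and the nucleoside transporter SLC29A1 by -0.57.

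**Figure D4:**
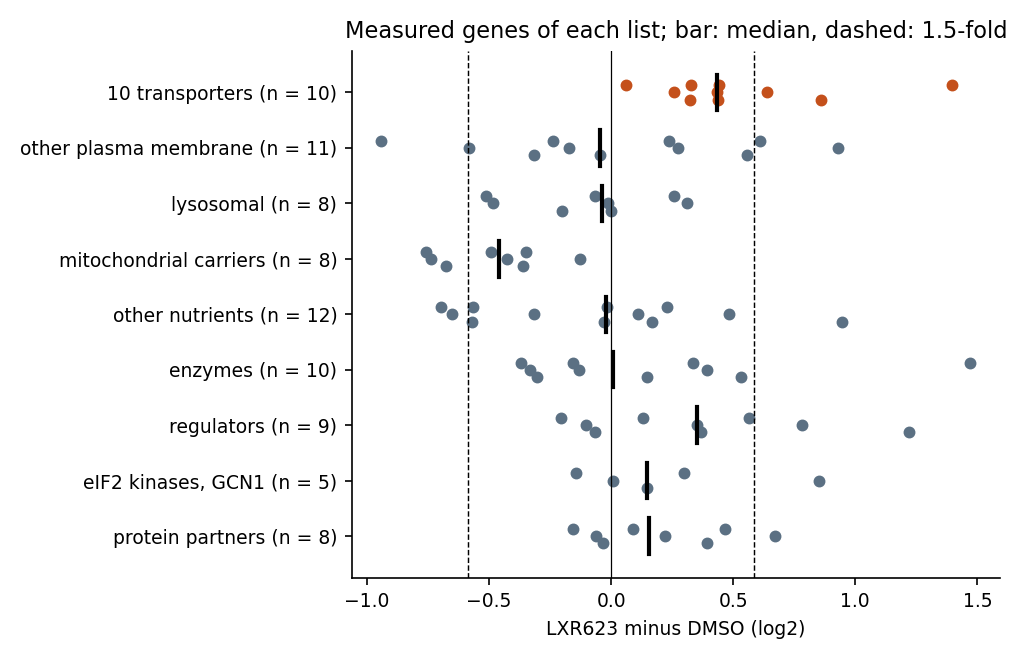
Difference between the LXR623 and the DMSO array (log2, horizontal axis) of each measured gene in 9 lists, with the median of each list as a bar and 1.5-fold as dashed lines. The 10 transporters, with a median of 0.43, all lie to the right of 0, and the 8 mitochondrial carriers, with a median of -0.46, all lie to the left.

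The enzymes that use the carried amino acids had a median difference of 0.01 over 10 measured genes, with 0 at least 1.5-fold lower, and 3 listed enzymes were not analysed here. ASNS, which makes asparagine from aspartate and glutamine, was the 1 gene at least 1.5-fold higher, with 7.87 and 9.34, a difference of 1.47. GCLC, the catalytic subunit of the enzyme that joins glutamate and cysteine in glutathione synthesis, differed by 0.53, and its modifier subunit GCLM by 0.15. SHMT2, which interconverts serine and glycine in mitochondria, differed by 0.39 and SHMT1, its cytosolic counterpart, by -0.16. BCAT2, which transaminates leucine, differed by -0.37, and ARG2, which cleaves arginine, by -0.33. The difference of SLC7A11 was thus larger than those of both subunits of the enzyme that uses the cysteine it supplies.

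Regulators of transporter genes were read out in the same arrays. ATF4 had 8.46 with DMSO and 9.02 with LXR623, a difference of 0.56, and its partner CEBPG had 6.69 and 7.04, a difference of 0.35. TRIB3, a target and inhibitor of ATF4, was higher by 1.22, from 7.38 to 8.60. These 3 genes thus had a higher value in the array in which the transporters had one. ATF4 and CEBPG lay inside the range of equally bright probe sets, with upper bounds of 0.64 and 0.85. TRIB3 lay above its upper bound of 0.79. ATF3 was higher by 0.78, from 3.87 to 4.66, so that its DMSO value was under the level counted as measured, and CEBPB differed by 0.37. DDIT3, which encodes CHOP, had 3.10 and 4.09, both under that level. The regulators of the antioxidant response were near 0 or below it. NFE2L2, which encodes NRF2, had -0.07, its inhibitor KEAP1 -0.10 and BACH1, which represses NRF2 targets, -0.20. MYC, which is known to drive SLC7A5 and SLC1A5, differed by 0.13. Of 9 measured regulators, 2 passed 1.5-fold upward, TRIB3 and ATF3, and 0 downward, and 2 listed regulators were not analysed here. Over all measured probe sets, the shares were 6.30% and 5.78%. ATF3 counted as measured only through its LXR623 value, and its difference lay inside the range of equally bright probe sets, up to 1.03. Transcript levels do not show the activity of these factors, and their part in the transporter values was not tested.

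Kinases that phosphorylate eIF2 and so raise ATF4 were measured throughout. EIF2AK3, which encodes the endoplasmic reticulum kinase PERK, was higher by 0.85, from 6.43 to 7.28. This lay just inside the range of equally bright probe sets, from -0.73 to 0.86. EIF2AK1, which encodes the heme-regulated kinase HRI, differed by 0.30, EIF2AK4, which encodes the amino acid sensor GCN2, by 0.15, its activator GCN1 by 0.01 and EIF2AK2, which encodes PKR, by -0.15. Transcript levels do not show kinase activity, which these arrays do not measure.

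Transcripts of proteins that bind or turn over the transporters were mostly within 1.5-fold. CD44, which stabilizes SLC7A11 at the surface, differed by -0.16, and OTUB1, a deubiquitinase of SLC7A11, by -0.06. LAPTM4B, which brings the SLC7A5 and SLC3A2 complex to lysosomes, differed by 0.09, and BSG and ITGB1, surface proteins that associate with CD98, by -0.03 and 0.47. RNF5, a ubiquitin ligase for SLC1A5 and SLC38A2, was at least 1.5-fold higher, with 6.69 and 7.36, a difference of 0.67. That difference lay inside the range of equally bright probe sets, from -0.87 to 0.72. NEDD4L, another ubiquitin ligase, differed by 0.22, and ARL6IP5, known from rodents as an inhibitor of SLC1A1, by 0.39, while SGK1 was under the level counted as measured. Of 8 measured partners, 1 was at least 1.5-fold higher and 0 lower, against 6.30% and 5.78% of all measured probe sets, with a median of 0.15.

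Genes next to the transporters on the chromosome were within 1.5-fold. Of 10 measured protein-coding neighbors, 0 passed 1.5-fold, and 4 had a difference above 0. They ranged from -0.34 for CHRM1, next to SLC3A2, to 0.45 for CCDC24, next to SLC6A9, with a median of -0.15. CHRM1 counted as measured only through its DMSO value, with 4.62 and 4.27. NOCT, next to SLC7A11, had 6.71 and 6.53, a difference of -0.18.

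The labelled cell type was checked by markers. EPCAM, with 10.15 and 10.21, CDH1, CDX2, KRT18, KRT19 and KRT8 were measured. KRT8 was higher by 1.50, from 5.63 to 7.14, the 1 marker past 1.5-fold, and its part in the transporter values was not tested. The other 6 of 12 markers of colon epithelium, such as CDH17, VIL1 and LGR5, were under the level counted as measured in both arrays. Of 11 markers of leukocytes, fibroblasts, endothelium, glia and liver, 1 was measured, COL1A1 with 5.58 and 5.70, and PTPRC, the defining marker of leukocytes, was under that level.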

How the data were processed

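Values were deposited as log2 intensities that the authors made by RMA, and per the labels RNA was biotin-labelled for Affymetrix arrays. Software named in the submitters' processing notes is R 2.15.1 with affy 1.36.1. The genome build is not given in the sources used here. The table holds 23786 probe sets, of which 22458 carry 1 gene symbol and 1328 are unnamed here, and no gene has several probe sets. After sorting, the arrays' values were at most 0.21 apart. Intensities are relative within an array, and precision is limited by how few arrays there are. Conditions had 1 array each, which allows no test.

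The members and all gene lists were chosen with earlier results of these data known. The text names the 10 transporters, all regulators, kinases and partners that were measured or dim, genes of other lists past 1.5-fold with up to 3 others per list near that size, and genes of the same families. SLC2A1, GCLM, SHMT1, ARG2, SLC7A5P1, SLC7A5P2, SLC7A11-AS1, the neighboring genes and single markers fall outside this rule and were named after their values were seen. Alternatives were other filters, quantile normalization, removal of the lowess trend with a fraction of 0.3, a 2-fold size and the mean. Python 3.11.15, numpy 2.4.6, pandas 2.3.3, statsmodels 0.14.6 and matplotlib 3.10.9 were used. The procedure was run on simulated data with known changes and little noise, which does not test calls made from 1 array per condition.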

Additional observations from a re-analysis of the deposited data

How the results depend on the processing

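The transporters were little affected by the processing. Their median difference was 0.42 under quantile normalization and 0.43 with the trend removed, and the mean of their differences was 0.52. The count of 3 at least 1.5-fold higher and 0 lower held under both scalings, while at 2-fold 1 was higher. The other filters could change neither this count nor the median, since all 10 transporters were above the level in both arrays. Over all probe sets, 1242 were at least 1.5-fold higher and 1133 lower without a filter, and 169 and 91 were so at 2-fold, since these settings admit or remove genes by construction. The median of the regulators was 0.24 with a filter on the mean of both values, which leaves fewer genes. Taken as means instead, the enzymes had 0.16 and the colon epithelial markers 0.31, and these lists hold single large differences, ASNS and KRT8. Of the single genes, ATF4 passed 1.5-fold with the trend removed, at 0.60, and the other 87 kept their 1.5-fold call under both scalings. The sign of genes close to 0 did turn: MFSD12 and SLC2A13 were above 0 under quantile normalization (0.02 and 0.004) and with the trend removed (0.03 and 0.01), and CTNS with the trend removed (0.006). No paired analysis was possible because each condition has 1 array, and a lone pair leaves no spread to test. The spread among equally bright probe sets limits what can be read, and its upper bound lay between 0.56 and 0.85 for the 10 transporters.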

Other observations

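Solute carriers of other substrates, named after their values were seen, gave larger differences than most of the 10 transporters. SLC44A5, of the family of choline transporter-like proteins, had the largest difference of all measured solute carrier genes, 1.45, from 4.78 to 6.23, ahead of SLC7A11. SLC16A5, of the monocarboxylate transporter family, was higher by 1.21, from 7.31 to 8.52, SLC20A1, a phosphate carrier, by 0.85 and SLC39A7, a zinc carrier of the secretory pathway, by 0.71. At the other end, SLC19A1, the reduced folate carrier, differed by -1.01, from 6.76 to 5.75, and SLC25A10, the mitochondrial dicarboxylate carrier, by -0.87.

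The deposited table holds 1355 probe sets, 5.70% of all, whose value is identical in both arrays to the last digit. They were 10.3% of the 11507 probe sets under the level counted as measured and 1.35% of the measured ones. None of the 10 transporters is among them, but 3 of the 28 other plasma membrane amino acid transporters are, SLC6A19, SLC7A3 and SLC7A9, all of them dim. Why values coincide was not tested.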
